A study of Homo sapiens with 19 samples.

Results

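The human neuroblastoma cell line SHEP TET21N carries a MYCN transgene that doxycycline shuts off, and the series holds 19 RNA sequencing libraries of it in 10 groups set by MYCN state and time. The comparison described here is MYCN-high cells, grown without doxycycline, against MYCN-low cells, grown with it, 14 days after a 72 h treatment with 0.1 µg/ml doxorubicin had been washed out. It rests on 3 of the 19 libraries, chosen by their labels: MYCN-high replicates B and C, and MYCN-low replicate B, which is the only MYCN-low library at this time. Untreated cells and cells 8 days after washout, each with 2 MYCN-high and 2 MYCN-low libraries, are used for comparison. Both states went through the drug and its washout, and every MYCN-low culture also held doxycycline, so doxycycline itself and the lower MYCN cannot be told apart. The labels call the libraries biological duplicates, all from 1 cell line, and nothing says which separate cultures they came from, so p-values measure only the spread between such libraries.

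MYCN belongs to the MYC family of transcription factors, which pair with MAX, bind E-box sequences and drive ribosome production, nucleotide synthesis and entry into the cell cycle. Its gene is amplified in a share of neuroblastomas, and raised MYCN marks aggressive disease. Doxorubicin traps topoisomerase II on DNA and breaks the strands. Cells that stop dividing for good after such damage can enter senescence, a state known for raised CDKN1A, loss of lamin B1 and secretion of cytokines, chemokines and matrix proteases.

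The MYCN-high libraries B and C held 17624744 and 20618021 reads in all, against 18672897 in the MYCN-low library. The whole series ran from 16547663 to 27664604, which sets the counting precision of single genes. Levels below are in CPM, read counts scaled to a common library size with edgeR's TMM factors, and are compared between libraries for the same gene only. ERCC spike-in RNAs took 0.144% and 0.537% of the counts in MYCN-high B and C, against 0.140% in MYCN-low B. The spike-in share thus differed more between the 2 MYCN-high libraries than between the 2 libraries of replicate B. When libraries were scaled to the spike-ins instead, the median log2 fold change of all genes moved from 0.00 to -0.83, and only 31 genes, all lower in MYCN-high cells, passed the test. All changes below are therefore relative to the median gene, and in such bulk samples fewer cells of a kind and less RNA per cell cannot be told apart.

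MYCN itself stood at 672 and 594 CPM in MYCN-high cells, against 13.5 CPM in MYCN-low cells. Its log2 fold change was 5.55 ± 0.49, with an adjusted p of 2.6e-06 by edgeR's quasi-likelihood test with Benjamini-Hochberg adjustment, which is the test behind every adjusted p below. The value after ± is an approximate standard error, taken from the test's F statistic. With the 8-day MYCN-low libraries in place of the 14-day one it was 4.75. The table does not separate transgene reads from those of the cell's own MYCN gene. Its relative MYC went the opposite way, at 0.41 and 0.906 CPM in MYCN-high cells against 13.9 CPM in MYCN-low cells (log2 fold change -4.36 ± 0.51, adjusted p = 1.7e-05). Without MYCN-high replicate C the value of MYC was -5.11. Neither MYC nor MYCN overlapped between the states. With 2 libraries against 1 this holds for most genes, as only 1715 of the 14793 tested overlapped. TXNIP, a thioredoxin inhibitor known as a gene that MYC represses, was also lower, at 48.9 and 71.7 CPM in MYCN-high cells against 1012 CPM in MYCN-low cells (-4.07 ± 0.34). Of 15 tested genes of the MYC, MAX and MXD network, MYC and MYCN included, 2 were higher and 5 lower (median -0.28). Over all tested genes 21.4% were higher and 20.5% lower, and the counts of this list moved under several alternatives. MXD1 (-1.94 ± 0.31) was among the lower genes, while MAX itself was not called.

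Across the transcriptome, MYCN-high cells at 14 days had high growth and cell division transcripts, and MYCN-low cells had high inflammatory, extracellular matrix, adhesion and lysosomal transcripts. Of 14793 genes tested, 3159 (21.4%) were higher and 3031 (20.5%) lower in MYCN-high cells at an adjusted p of at most 0.05, and 2225 and 2271 of these changed by at least 2-fold. Of the 3159 higher genes, 99.1% also had both MYCN-low libraries of 8 days below both MYCN-high libraries of 14 days, and of the 3031 lower genes 98.6% had them above. Over all tested genes these shares were 38.0% and 39.7%. The called genes were picked with the same MYCN-high libraries, and the 8-day libraries helped to set the spread. The shares are therefore no independent check of the single MYCN-low library. With the 8-day MYCN-low libraries in place of the 14-day one, a choice made after seeing the data, 7323 genes were called. Among genes averaging at least 5 CPM, most of those with the largest increase were histones, which are taken up below with the cell cycle. The others were SERPINF1, MYCN itself, SAMD11 and DIO2, the enzyme that activates thyroid hormone, at 810 and 365 CPM in MYCN-high cells against 14.3 CPM in MYCN-low cells (5.36 ± 1.07; 4.67 without MYCN-high replicate B and 4.28 with the 8-day MYCN-low libraries). The largest decreases were in inflammatory and matrix genes, together with the serotonin receptor HTR2A, at 0.0585 and 0.201 CPM in MYCN-high cells against 35.3 CPM in MYCN-low cells, and ANGPTL4, an inhibitor of lipoprotein lipase, with 0 and 3 reads in MYCN-high cells against 1120 reads in MYCN-low cells.

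**Figure D1:**
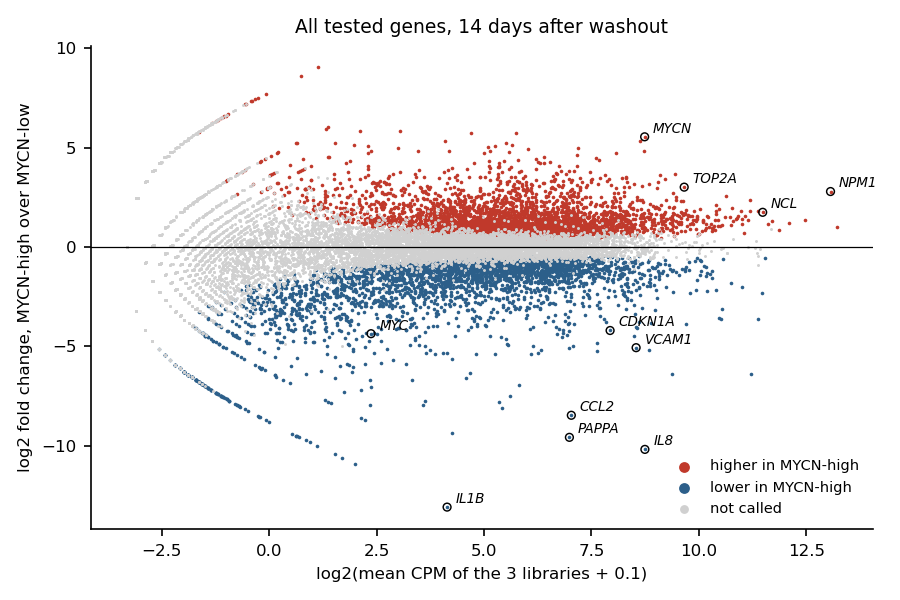
Each point is 1 of 14793 tested genes, with log2 of its mean CPM over the 3 libraries of 14 days plus 0.1 on the x axis and its log2 fold change, MYCN-high over MYCN-low, on the y axis. Red points (3159) were higher and blue points (3031) lower in MYCN-high cells by edgeR at an adjusted p of at most 0.05, and IL8, CCL2 and PAPPA lie far below the other genes of similar level; the curved streaks at the left are genes with few counts or none in 1 state.

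Genes that MYC proteins are known to drive, and the machinery that builds ribosomes, were higher in MYCN-high cells. Of 45 tested MYC targets 40 were higher and none lower, with a median log2 fold change of 1.76, against 0.00 over all genes. Nucleolin (NCL), which processes ribosomal RNA, stood at 3992 and 3499 CPM in MYCN-high cells against 1113 CPM in MYCN-low cells (1.75 ± 0.33, adjusted p = 0.00058). Ornithine decarboxylase ODC1, the first step of polyamine synthesis, stood at 992 and 972 CPM in MYCN-high cells against 172 CPM in MYCN-low cells (2.51 ± 0.26, adjusted p = 6.6e-06). The MYC target TFAP4, itself a transcription factor, was 9.59-fold higher, at 29.8 and 32.8 CPM in MYCN-high cells against 3.26 CPM in MYCN-low cells. The 5 MYC targets not called were LDHA, TFRC, HK2, SRM and PPAN, and LDHA, which makes lactate, had a log2 fold change of 0.02 ± 0.23.

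Of 47 ribosome biogenesis and RNA polymerase I genes 44 were higher and none lower (median 1.42). They include LYAR (2.51 ± 0.28), the snoRNP protein NHP2 (2.31 ± 0.24) and the RNA polymerase I subunit POLR1B, at 141 and 119 CPM in MYCN-high cells against 44.6 CPM in MYCN-low cells. Of 80 cytosolic ribosomal protein genes 78 were higher and 1 lower (median 1.32). Without MYCN-high replicate C only 51 of these 80 were called higher, and many have near-identical pseudogene copies that share reads. Of 72 mitochondrial ribosomal protein genes 68 were higher and none lower (median 1.28). Nucleotide and one-carbon synthesis had 21 higher and 2 lower of 29 (median 1.66). PFAS, a step of purine synthesis, stood at 93.4 and 98.8 CPM in MYCN-high cells against 12.2 CPM in MYCN-low cells (2.97 ± 0.25), and thymidylate synthase TYMS at 99.4 and 89.6 CPM in MYCN-high cells against 19.4 CPM in MYCN-low cells (2.28 ± 0.26).

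The E-box CACGTG that MYC family dimers bind was searched in RefSeq promoter windows (GRCh38.p14, 250 bases before to 50 after each gene's start), in which 11175 of the tested genes had an entry. It reads the same on both strands. It was found in 41.0% of the 39 MYC targets and 31.7% of the 41 ribosome biogenesis genes with an entry. The share did not follow the direction of the lists, being 9.38% of 64 mitochondrial and 4.62% of 65 cytosolic ribosomal protein genes, nearly all higher, and 32.3% of 31 lysosome and autophagy genes, most of them lower. The share was 13.1% of genes higher in MYCN-high cells, 8.07% of those lower, 9.75% of all tested genes with an entry and 7.43% of all promoters in the table. A match is a description of the letters, not a bound site. The windows of APEX1, a DNA repair nuclease (443 and 632 CPM in MYCN-high cells, 141 CPM in MYCN-low cells), and CDK4, the G1 kinase (209 and 262 CPM in MYCN-high cells against 88.4 CPM in MYCN-low cells), are shown because each holds 3 matches, in capitals, in the 250 bases before the start.
APEX1, chr14:20454976-20455225, plus strand: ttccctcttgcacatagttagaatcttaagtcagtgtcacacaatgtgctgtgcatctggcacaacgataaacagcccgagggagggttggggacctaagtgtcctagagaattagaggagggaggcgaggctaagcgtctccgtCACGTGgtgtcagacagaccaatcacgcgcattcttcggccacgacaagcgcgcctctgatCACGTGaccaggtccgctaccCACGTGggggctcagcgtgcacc
CDK4, chr12:57752311-57752560, minus strand: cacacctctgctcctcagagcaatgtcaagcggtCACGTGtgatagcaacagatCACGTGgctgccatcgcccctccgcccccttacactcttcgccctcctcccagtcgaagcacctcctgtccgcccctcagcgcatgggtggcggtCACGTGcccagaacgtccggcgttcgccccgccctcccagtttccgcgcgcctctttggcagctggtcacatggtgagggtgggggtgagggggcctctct

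Cell division transcripts were higher in MYCN-high cells at 14 days across whole lists. All 60 tested genes of G2 and mitosis were higher in MYCN-high cells (median 3.04), as were all 47 of DNA replication (median 2.46) and 25 of 27 genes that repair breaks by recombination or in the Fanconi pathway (median 2.33). Cyclin B1 (CCNB1), which drives entry into mitosis, stood at 773 and 805 CPM in MYCN-high cells against 63.6 CPM in MYCN-low cells (3.63 ± 0.40, adjusted p = 1.1e-05). Topoisomerase II alpha (TOP2A), the main target of doxorubicin, stood at 1192 and 1091 CPM in MYCN-high cells against 141 CPM in MYCN-low cells (3.02 ± 0.65, adjusted p = 0.0016). The proliferation antigen MKI67 had 643 and 385 CPM in MYCN-high cells against 98.1 CPM in MYCN-low cells (2.39 ± 0.63, adjusted p = 0.007). MYCN-low cells thus kept some of these transcripts at 14 days. The libraries of the states did not overlap in any of the 3 genes, but only 1715 of all 14793 tested genes did overlap.

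All 56 tested replication-dependent histone genes were higher in MYCN-high cells (median 4.08). Single histone genes are uncertain because near-identical copies share reads. HIST1H4A stood at 13.5 and 10.8 CPM in MYCN-high cells against 0.204 CPM in MYCN-low cells (5.85 ± 0.70; 3.82 with the 8-day MYCN-low libraries), and HIST1H1C, a linker histone, at 303 and 276 CPM in MYCN-high cells against 50.3 CPM in MYCN-low cells (2.52 ± 0.23). Of 12 lamin and HMGB genes 8 were higher and 1 lower (median 1.99). Lamin B1 (LMNB1) stood at 306 and 294 CPM in MYCN-high cells against 26.8 CPM in MYCN-low cells (3.49 ± 0.46, adjusted p = 4.0e-05). The lamin B receptor LBR (2.42 ± 0.23) and the chromatin protein HMGB1 (2.32 ± 0.25) were higher as well, while lamin A (LMNA) was not called (-0.26 ± 0.20).

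The letters TTTGAA, the core of the CHR element through which the DREAM complex acts on late cell cycle genes, were found on either strand in 74.0% of the 50 G2 and mitosis genes with a promoter entry. The share was 10.4% of all tested genes with an entry, 15.4% of all promoters and 2.50% of the 40 DNA replication genes with one. It was 41.3% of 46 replication-dependent histones, 13.7% of genes higher in MYCN-high cells and 9.28% of those lower. MKI67 and PLK1, a mitotic kinase at 87.7 and 85.0 CPM in MYCN-high cells against 7.74 CPM in MYCN-low cells, are shown with the matches in capitals, at 47 and 29 bases before the start of MKI67 and 29 bases before that of PLK1.
MKI67, chr10:128126424-128126673, minus strand: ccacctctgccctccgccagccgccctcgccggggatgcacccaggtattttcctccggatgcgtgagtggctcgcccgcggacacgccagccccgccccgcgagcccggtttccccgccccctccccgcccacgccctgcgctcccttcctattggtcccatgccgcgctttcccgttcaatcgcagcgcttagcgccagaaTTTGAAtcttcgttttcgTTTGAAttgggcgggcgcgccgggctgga
PLK1, chr16:23678639-23678888, plus strand: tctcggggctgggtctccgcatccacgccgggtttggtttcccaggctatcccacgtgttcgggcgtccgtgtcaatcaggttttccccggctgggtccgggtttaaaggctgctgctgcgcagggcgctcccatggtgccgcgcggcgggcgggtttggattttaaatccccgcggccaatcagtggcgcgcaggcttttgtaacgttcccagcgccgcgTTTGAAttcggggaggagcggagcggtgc

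Among the G1 regulators the directions were mixed, with 13 higher and 4 lower of 24 tested. The cyclin-dependent kinase inhibitor CDKN1A (p21), the main arrest gene downstream of p53, stood at 41.6 and 30.4 CPM in MYCN-high cells against 661 CPM in MYCN-low cells (-4.20 ± 0.40, adjusted p = 4.2e-06). Cyclin D1 (CCND1) was also lower, at 114 and 110 CPM in MYCN-high cells against 849 CPM in MYCN-low cells (-2.92 ± 0.30, adjusted p = 6.1e-06; -2.13 with the 8-day MYCN-low libraries). CDKN1C (p57), another inhibitor, had no read in the MYCN-low library and was at least 5.67-fold higher in MYCN-high cells. A further inhibitor, CDKN2C, was higher too, of 75.0 and 80.1 CPM in MYCN-high cells against 14.5 CPM in MYCN-low cells (2.42 ± 0.35; 1.78 with the 8-day MYCN-low libraries). CDKN2A and CDKN2B, the p16 and p15 genes, are listed at 0 in every library of the series. E2F1 had 20.1 and 13.5 CPM in MYCN-high cells against 4.74 CPM in MYCN-low cells and just missed the threshold (adjusted p = 0.054).

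Of 36 tested p53 targets 22 were lower in MYCN-high cells and none higher (median -1.11). The stress cytokine GDF15 stood at 2.99 and 7.6 CPM in MYCN-high cells against 219 CPM in MYCN-low cells (-5.35 ± 0.74, adjusted p = 5.6e-05; -6.25 without MYCN-high replicate C and -4.48 with the 8-day MYCN-low libraries). MDM2, which degrades p53, stood at 372 and 276 CPM in MYCN-high cells against 975 CPM in MYCN-low cells (-1.59 ± 0.33, adjusted p = 0.0014). ZMAT3 (-2.85 ± 0.32) and SPATA18 (-3.23 ± 0.42) were lower too. The apoptosis effector BAX was not called (-0.17 ± 0.31). Of 11 BCL2 family genes 4 were lower, namely BCL2L1 (-2.10 ± 0.32), PMAIP1 (-1.19), MCL1 (-0.79 ± 0.21) and BCL2L2 (-0.65). The call of BCL2L2 was lost with the 8-day MYCN-low libraries (-0.36).

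Over the time points the 2 states parted in how these transcripts came back. CCNB1 stood at 40.5 and 76.3 CPM in MYCN-high cells and at 10.3 and 13.6 CPM in MYCN-low cells at the end of the 72 h of doxorubicin. At 8 days it stood at 430 and 445 CPM in MYCN-high cells and 45 and 74.9 CPM in MYCN-low cells. The 14-day level in MYCN-high cells, 773 and 805 CPM, lay between the untreated values of 758 and 840 CPM, whereas the 63.6 CPM in MYCN-low cells lay below the untreated 363 and 484 CPM. CDKN1A had 1193 and 1042 CPM in MYCN-high cells and 1999.6 and 1529 CPM in MYCN-low cells at 72 h, and at 8 days 158 and 61 CPM in MYCN-high cells against 657 and 569 CPM in MYCN-low cells. In MYCN-low cells the 14-day library lay between the 8-day ones for CCNB1 and just above them for CDKN1A.

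**Figure D2:**
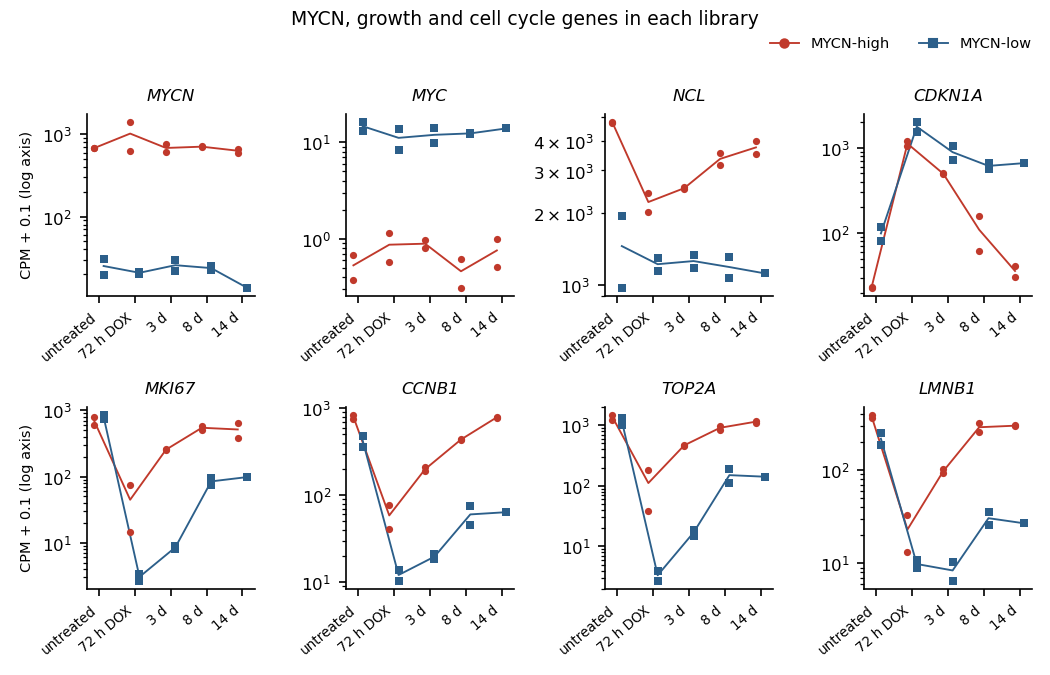
CPM plus 0.1 on a log axis in each library (points) and group means (lines) for 8 genes, from untreated cells through 72 h of doxorubicin (DOX) to 3, 8 and 14 days after washout, for MYCN-high (red circles) and MYCN-low cells (blue squares). At 14 days CDKN1A stood at 41.6 and 30.4 CPM in MYCN-high cells against 661 CPM in MYCN-low cells, while CCNB1 stood at 773 and 805 CPM in MYCN-high cells against 63.6 CPM in MYCN-low cells.

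Inflammatory transcripts were far lower in MYCN-high cells, and the single MYCN-low library of 14 days held levels of several of them that no other library of the series reached. IL8 (CXCL8), a chemokine that draws neutrophils, stood at 0.527 and 1.61 CPM in MYCN-high cells against 1283 CPM in MYCN-low cells (-10.19 ± 0.81, adjusted p = 1.3e-06). The 2 MYCN-low libraries of 8 days held 25.5 and 46.2 CPM of it. With those in place of the 14-day library, the log2 fold change of IL8 was -5.03, and without MYCN-high replicate C of 14 days it was -11.29. IL1B, the cytokine interleukin-1 beta, had no read in either MYCN-high library, against 1031 reads (52.5 CPM) in the MYCN-low library, and was at least 647-fold lower in MYCN-high cells when the floor is set at 3 counts over the 2 libraries. The MYCN-low libraries of 8 days held 3.93 and 3.69 CPM of IL1B. Under spike-in scaling IL8, IL1B, IL6, CXCL1 and CCL2 were among the 31 genes that still passed.

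Of 14 tested chemokines 9 were lower in MYCN-high cells and none higher (median -4.30; -3.85 with CCL7, which had no read in MYCN-high cells, at its bound). CXCL1 stood at 0.234 and 0.655 CPM in MYCN-high cells against 126 CPM in MYCN-low cells (-8.10 ± 1.02), and the monocyte chemokine CCL2 at 1.52 and 0.705 CPM in MYCN-high cells against 390 CPM in MYCN-low cells (-8.47 ± 1.20). With the 8-day MYCN-low libraries in place of the 14-day one, 5 of the 14 were called lower (median -1.39), CXCL1 had -3.71 and CCL2 -5.24, and CXCL2 was no longer called (-0.56, against -4.75 ± 0.73). Leaving out a MYCN-high library moved CXCL1 to -9.09 (without C), CCL2 to -9.10 (without B) and CXCL2 to -4.07 (without B) or -6.29 (without C). CXCL12, which had 1.58 and 4.03 CPM in MYCN-high cells against 2.24 CPM in MYCN-low cells, was not called. CXCL1, CXCL2 and CXCL3 are close copies of each other, so reads may be split between them.

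Of 23 tested genes of the interleukin-1 and interleukin-6 families 13 were lower and 1, the receptor IL6R, was higher (median -1.50). IL6 had 0 and 0.302 CPM in MYCN-high cells against 36.2 CPM in MYCN-low cells (-7.77 ± 0.89), and its value was -3.56 with the 8-day MYCN-low libraries and -6.88 without MYCN-high replicate B; without replicate C no read was left on the MYCN-high side. The lower members include the ligands LIF (-5.39 ± 0.51; -3.76 with the 8-day MYCN-low libraries) and IL33 and the receptors IL1R1 (-3.19 ± 0.25) and OSMR (-2.98 ± 0.28). IL33 had no read in MYCN-high cells and was at least 116-fold lower. Of 29 NF-kappaB subunits, inhibitors and targets 18 were lower and none higher (median -1.70). The median was -0.95, with 2 members called higher, when the 8-day MYCN-low libraries stood in for the 14-day one. VCAM1, an adhesion molecule, stood at 10.9 and 51.8 CPM in MYCN-high cells against 1053 CPM in MYCN-low cells (-5.06 ± 0.55), the macrophage growth factor CSF1 at 11.7 and 17.6 CPM in MYCN-high cells against 560 CPM in MYCN-low cells (-5.26 ± 0.46), and mitochondrial superoxide dismutase SOD2 at 104 and 73.4 CPM in MYCN-high cells against 1245 CPM in MYCN-low cells (-3.81 ± 0.42). The feedback inhibitor TNFAIP3 (-3.83 ± 0.47) was lower too, as was NFKBIZ (-3.60 ± 0.36), whereas the subunits RELA, NFKB1 and REL were not called. With the 8-day MYCN-low libraries, VCAM1 had -4.45, SOD2 -1.36, TNFAIP3 -1.96 and NFKBIZ -2.10, and each still passed. VCAM1 differed between the 2 MYCN-high libraries, with -4.35 without replicate B and -6.64 without replicate C.

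**Figure D3:**
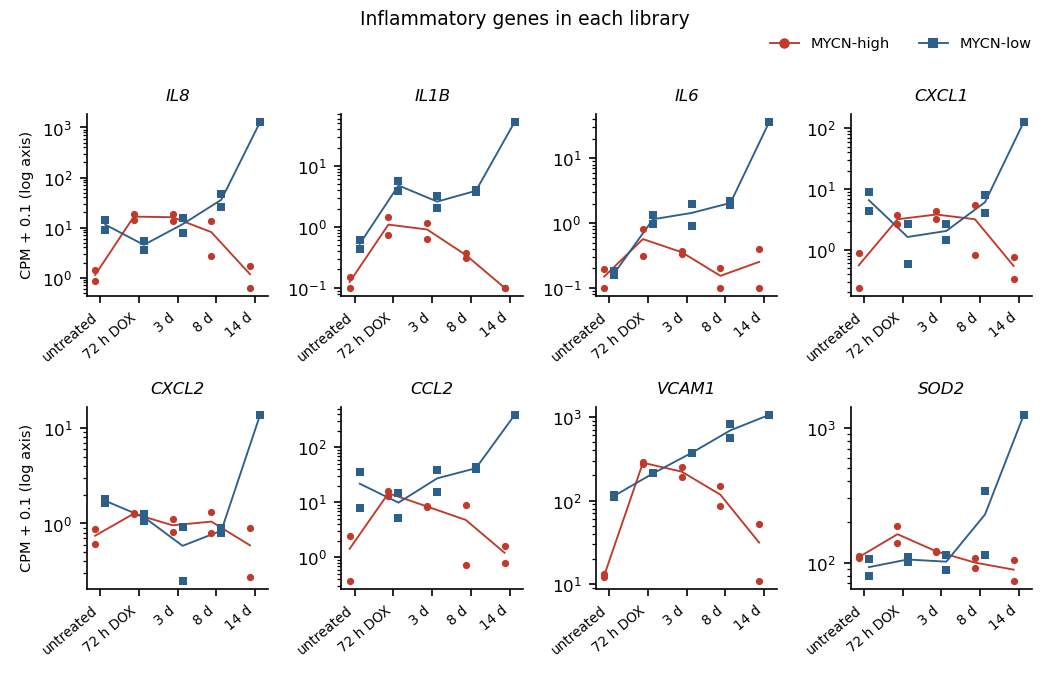
CPM plus 0.1 on a log axis in each library (points) and group means (lines) for 8 inflammatory genes, from untreated cells through 72 h of doxorubicin (DOX) to 3, 8 and 14 days after washout, for MYCN-high (red circles) and MYCN-low cells (blue squares). The single MYCN-low library of 14 days is the highest point for each of the 8 genes, at 1283 CPM for IL8 against 25.5 and 46.2 CPM in the MYCN-low libraries of 8 days.

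The pattern GGNNNTTCC, a shortened form of the sequence NF-kappaB binds, was found on either strand in 63.6% of the 11 chemokines with a promoter entry and in 57.7% of the 26 genes of the NF-kappaB list. Short patterns are common, and 22.8% of all tested genes with an entry and 20.1% of all promoters hold them. The share was 23.7% in genes higher in MYCN-high cells and 22.4% in those lower. It did not follow the direction of the lists. It was 39.0% of 41 ribosome biogenesis and 39.1% of 23 nucleotide and one-carbon synthesis genes, most of them higher. In the interleukin-1 and interleukin-6 families it was 31.25% of 16 genes. IL8, CXCL1 and TNFAIP3 are shown as examples that hold a match, from the genes whose state difference was called as changed between 8 and 14 days. Other such genes, among them CXCL2, IL1B, TGFA and NFKBIZ, are not shown. The matches, in capitals, begin 91 bases before the start of IL8, 78 and 53 bases before that of CXCL1 and 67 and 55 bases before that of TNFAIP3.
IL8, chr4:73740319-73740568, plus strand: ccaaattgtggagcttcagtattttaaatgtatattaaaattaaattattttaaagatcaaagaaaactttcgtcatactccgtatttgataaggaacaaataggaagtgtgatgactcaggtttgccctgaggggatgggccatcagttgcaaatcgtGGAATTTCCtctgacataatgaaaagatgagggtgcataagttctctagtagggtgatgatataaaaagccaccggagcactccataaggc
CXCL1, chr4:73869143-73869392, plus strand: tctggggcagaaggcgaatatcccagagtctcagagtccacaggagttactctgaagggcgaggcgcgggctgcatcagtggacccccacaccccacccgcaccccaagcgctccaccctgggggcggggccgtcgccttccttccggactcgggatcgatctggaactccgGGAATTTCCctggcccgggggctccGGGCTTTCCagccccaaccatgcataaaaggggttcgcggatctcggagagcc
TNFAIP3, chr6:137867009-137867258, plus strand: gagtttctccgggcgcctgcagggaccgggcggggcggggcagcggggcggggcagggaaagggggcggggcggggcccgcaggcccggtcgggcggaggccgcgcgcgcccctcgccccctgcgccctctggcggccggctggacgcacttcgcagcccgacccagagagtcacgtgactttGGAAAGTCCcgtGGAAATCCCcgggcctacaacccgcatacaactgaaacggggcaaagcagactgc

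Interferon and immune recognition transcripts were lower in part. Of 39 interferon-stimulated genes 21 were lower and 1, USP18, was higher (median -1.41), and 17 were not called, among them IFIT1 (-0.07 ± 0.35). The median of this list was -0.90, with 3 members called higher, when the 8-day MYCN-low libraries stood in for the 14-day one. TRIM22 stood at 4.39 and 4.23 CPM in MYCN-high cells against 132 CPM in MYCN-low cells (-4.93 ± 0.49), and SAMD9L at 22.6 and 23.8 CPM in MYCN-high cells against 180 CPM in MYCN-low cells (-2.96 ± 0.28). Of 21 genes of MHC class I presentation 13 were lower and 1 higher (median -1.35), the call of the higher one being lost under most alternatives. HLA-B stood at 18.8 and 14.9 CPM in MYCN-high cells against 307 CPM in MYCN-low cells (-4.19 ± 0.26, adjusted p = 4.5e-07), with the limit that HLA genes resemble each other and vary from the reference. Of 17 complement genes 10 were lower and none higher (median -2.08), led by C3, at 0.351 and 1.21 CPM in MYCN-high cells against 145 CPM in MYCN-low cells.

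Extracellular matrix and adhesion genes were lower in MYCN-high cells across most of their lists. Of 28 collagens 18 were lower and none higher (median -3.15), of 49 matrix glycoproteins and matrix enzymes 40 were lower and 1 higher (median -2.50), and of 18 integrins 16 were lower and none higher (median -2.70). COL1A1, the main chain of type I collagen, stood at 37.3 and 34.7 CPM in MYCN-high cells against 1306 CPM in MYCN-low cells (-5.18 ± 1.18, adjusted p = 0.0026). Fibronectin FN1 stood at 104 and 60.7 CPM in MYCN-high cells against 6976 CPM in MYCN-low cells (-6.41 ± 0.85, adjusted p = 4.4e-05). The integrin subunit ITGA3 had 161 and 140 CPM in MYCN-high cells against 2188 CPM in MYCN-low cells (-3.86 ± 0.45), and the beta subunit ITGB1 was lower by less (-2.01 ± 0.25). P4HA1, which hydroxylates collagen, was lower as well (-2.56 ± 0.21).

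Of 31 proteases, plasminogen activators and inhibitors 22 were lower and 1 higher (median -2.54). The urokinase gene PLAU stood at 4.86 and 4.43 CPM in MYCN-high cells against 194 CPM in MYCN-low cells (-5.39 ± 0.75; -4.61 with the 8-day MYCN-low libraries), and MMP14 at 24.3 and 22 CPM in MYCN-high cells against 332 CPM in MYCN-low cells (-3.84 ± 0.38). The exception was SERPINF1 (PEDF), an inhibitor of blood vessel growth, at 17 and 60.2 CPM in MYCN-high cells against 0.713 CPM in MYCN-low cells (5.75 ± 0.94). Its value was 6.39 without MYCN-high replicate B, 4.51 without replicate C and 5.03 with the 8-day MYCN-low libraries. Of 12 genes of the IGF-binding group 8 were lower and none higher (median -2.56). PAPPA, a protease that frees IGF from its binding proteins, stood at 0.644 and 0.352 CPM in MYCN-high cells against 379 CPM in MYCN-low cells (-9.58 ± 1.65, adjusted p = 0.00032; -7.90 with the 8-day MYCN-low libraries).

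**Figure D4:**
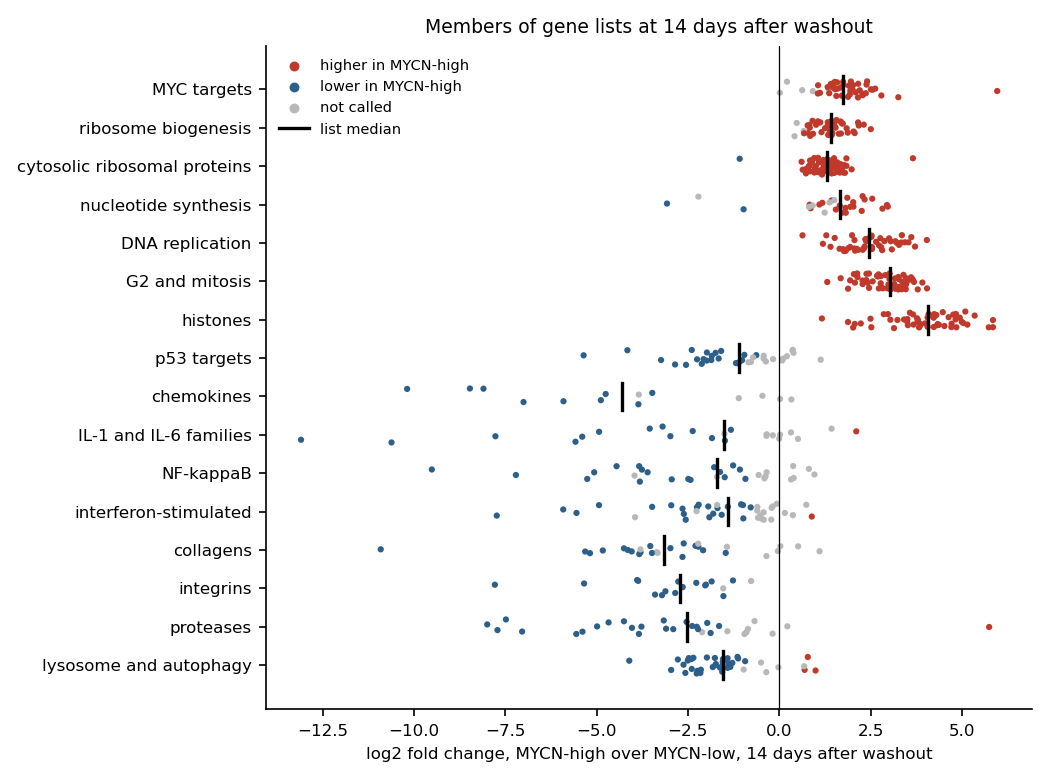
Each point is 1 tested member of a gene list, placed at its log2 fold change, MYCN-high over MYCN-low, at 14 days, and black bars are list medians. Red members were higher and blue members lower in MYCN-high cells by edgeR at an adjusted p of at most 0.05; medians run from 4.08 for histones to -4.30 for chemokines.

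Signalling genes that act on matrix were mixed. In TGF-beta and activin signalling 15 of 33 were lower and 4 higher (median -0.96). The activin subunit INHBA stood at 0.644 and 1.16 CPM in MYCN-high cells against 74.5 CPM in MYCN-low cells (-6.34 ± 0.83), and the receptor TGFBR2 was lower (-2.68 ± 0.35), while the inhibitor of differentiation ID1 was higher (1.57 ± 0.31). Of 19 YAP targets 11 were lower and 2 higher (median -1.11), with the coactivator WWTR1 (TAZ) at -2.49 ± 0.29 and CYR61 not called. Of 26 AP-1 and immediate-early genes 13 were lower and none higher (median -1.29), a count that was 8 without either MYCN-high library, and of 12 EGF family genes 5 were lower, including TGFA (-3.55 ± 0.40; -4.24 without MYCN-high replicate C and -2.44 with the 8-day MYCN-low libraries). Of 18 contractile genes 10 were lower and 1 higher (median -0.95), and 6 were lower without MYCN-high replicate C.

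Metabolic and organelle genes also set the states apart. Of 43 lysosome and autophagy genes 35 were lower in MYCN-high cells and 3 higher (median -1.55). Prosaposin (PSAP), which activates lysosomal lipid breakdown, stood at 406 and 499 CPM in MYCN-high cells against 2020.1 CPM in MYCN-low cells (-2.16 ± 0.21), and GLB1, the lysosomal beta-galactosidase, had -1.47 ± 0.19. Of 31 glycolysis genes 16 were lower and 4 higher (median -0.69), with the glucose transporter SLC2A3 at 3.16 and 6.29 CPM in MYCN-high cells against 75.5 CPM in MYCN-low cells (-3.99 ± 0.37; -4.63 without MYCN-high replicate C). Of 32 cholesterol and fatty acid synthesis genes 21 were higher and 2 lower (median 1.12), among them EBP (2.89 ± 0.28) and FDPS (1.81 ± 0.19). Of 18 endoplasmic reticulum chaperones 10 were lower and 1 higher (median -0.75).

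Among topoisomerases, efflux pumps and anthracycline reductases 9 of 24 were higher and 3 lower (median 0.55, which was below 0 under spike-in scaling). ABCB1, the pump that exports doxorubicin, stood at 104 and 109 CPM in MYCN-high cells against 33.1 CPM in MYCN-low cells (1.68 ± 0.44, adjusted p = 0.0065). The pump ABCC3 was lower (-2.64 ± 0.34). Polyamine genes (3 higher, 1 lower of 12), amino acid transporters (5 higher, 3 lower of 24) and integrated stress response genes (1 higher, 7 lower of 25) had members called in both directions. Over all tested genes 21.4% were higher and 20.5% lower, so these counts do not set the 3 lists apart. The medians of the 3 lists changed sign under spike-in scaling or with the replicate block. In the polyamine list the members went opposite ways, with the breakdown enzyme SAT1 lower (-3.14 ± 0.41) and the synthesis enzyme AMD1 higher (1.30 ± 0.20).

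How far the state difference at 14 days was already there before treatment was tested directly, as the difference between the log2 fold changes at 14 days and in untreated cells. In 721 genes (4.87%) it was more positive and in 375 (2.53%) more negative at 14 days. Cell division genes made up a large block of the first kind. The test called 55 of 56 histones, 56 of 60 G2 and mitosis genes and 28 of 47 DNA replication genes, whose untreated medians were -0.07, 0.21 and 0.74. CCNB1 had 758 and 840 CPM in untreated MYCN-high cells and 363 and 484 CPM in untreated MYCN-low cells, and its state difference was larger by 2.72 ± 0.45 at 14 days (adjusted p = 0.0036). LMNB1 (2.69 ± 0.52) and TOP2A (2.81 ± 0.75) behaved alike, while MKI67 just missed the threshold (2.60 ± 0.76, adjusted p = 0.05 after rounding).

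Growth lists differed among themselves. In ribosome biogenesis 1 of 47 genes had a more positive state difference at 14 days, from an untreated median of 1.24, and in MYC targets 8 of 45 were more positive and 1 more negative, from 1.30. Ribosomal proteins were more positive in 12 of 80 cytosolic and 14 of 72 mitochondrial genes, with untreated medians of 0.49 and 0.68. Nucleotide and one-carbon synthesis had 6 of 29 more positive, from 0.76. NCL had a change of 0.04 ± 0.39 in its state difference and MYCN one of 0.77 ± 0.48 (adjusted p = 0.98 and 0.36). A p that misses the threshold does not show that these differences are equal.

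Among the genes whose difference became more negative, CDKN1A had 23.5 and 22.9 CPM in untreated MYCN-high cells and 117 and 81.2 CPM in untreated MYCN-low cells, and its difference fell by 2.10 ± 0.52 on the log2 scale (adjusted p = 0.025). CCND1, whose untreated libraries overlapped between the states at 296 and 166 CPM in MYCN-high and 185 and 162 CPM in MYCN-low cells, had a change of -3.33 ± 0.39 (adjusted p = 0.00057). SOD2 changed by -4.06 ± 0.54 and IL8 by -6.71 ± 1.08 (adjusted p = 0.001 and 0.0031). Of the p53 targets 9 of 36 were more negative, of lysosome genes 10 of 43, of glycolysis genes 8 of 31, of the NF-kappaB list 6 of 29 and of chemokines 4 of 14, and in these lists 1 lysosome gene and 1 chemokine were more positive. Collagens and integrins had 3 more negative members each, of 28 and 18, and untreated medians of -1.80 and -1.89. The counts of this test ran from 345 to 2542 genes when single libraries were left out, with the lowest count without untreated MYCN-high replicate B and the highest without untreated MYCN-low replicate C.

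**Figure D5:**
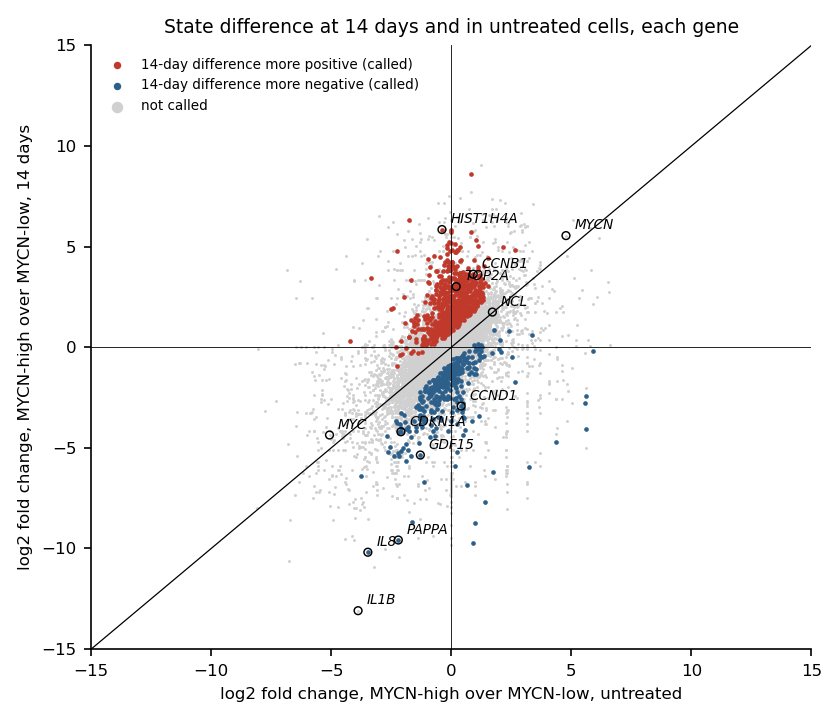
Each point is 1 of 14793 tested genes, with the log2 fold change, MYCN-high over MYCN-low, in untreated cells on the x axis and at 14 days on the y axis; the diagonal marks equal differences. Red (721) and blue (375) points are genes whose difference was more positive or more negative at 14 days by edgeR at an adjusted p of at most 0.05; HIST1H4A, TOP2A and CCNB1 lie above the diagonal, and CCND1, CDKN1A, GDF15, PAPPA and IL8 below it.

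Between 8 and 14 days the state difference was called as changed in few genes. A p that misses the threshold does not show that it stayed equal in the others. It was more positive in 22 genes (0.149%) and more negative in 18 (0.122%), and 1206 genes had an unadjusted p under 0.05. The 18 include IL8 (-8.03), CXCL1 (-7.15), CXCL2 (-5.11), TNFAIP3 (-4.72), TGFA (-4.08) and NFKBIZ (-2.54), as well as IL1B, and all of these rest on the single MYCN-low library of 14 days on one side. In TNFAIP3 and TGFA both states moved, with TGFA at 59.8 and 30.1 CPM at 8 days in MYCN-high cells and 33 and 29.5 CPM in MYCN-low cells, and at 3.69 and 7.75 CPM at 14 days in MYCN-high cells against 67.4 CPM in MYCN-low cells.

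The 22 genes of the other direction include the receptor tyrosine kinase KIT, at 151 and 115 CPM at 14 days in MYCN-high cells against 39.4 CPM in MYCN-low cells, and at 26.7 and 32.6 CPM at 8 days in MYCN-high cells and 114 and 112 CPM in MYCN-low cells (change 3.69, adjusted p = 0.0015). PDE5A stood at 120 and 108 CPM at 14 days and 20.4 and 14.1 CPM at 8 days in MYCN-high cells, against 90.7 CPM at 14 days and 114 and 168 CPM at 8 days in MYCN-low cells (change 3.37, adjusted p = 0.0015). The chemokine receptor CXCR7 and TNFRSF19 did the same from lower levels (5.14 and 4.01), and neither was called in the 14-day comparison. In these 4 genes the MYCN-high libraries of 14 days lay above those of 8 days. The count of 40 genes was 104 without MYCN-high 14-day replicate C and 10 without MYCN-high 14-day replicate B or 8-day replicate B.

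The identity of the cells was checked with marker lists. Of adrenergic neuroblast markers, 9 of the 20 in the table had no read in the 3 libraries of 14 days. Mesenchymal markers were present in both states, with vimentin (VIM) at 900.0 and 800 CPM in MYCN-high cells against 1629.9 CPM in MYCN-low cells, and 7 of 16 were lower and 2 higher in MYCN-high cells. Of 10 tested adrenergic markers 2 were higher and 3 lower in MYCN-high cells (median -0.30). The transcription factor genes HAND2 (2.07 ± 0.47; 1.17 with the 8-day MYCN-low libraries) and GATA2 (1.64 ± 0.34) were higher. The neuropeptide precursor SCG2 was lower and stood at 7.96 and 39.1 CPM in MYCN-high cells against 1959 CPM in MYCN-low cells (-6.37 ± 0.59; -5.65 without replicate B and -8.00 without replicate C). Haematopoietic markers summed to 10.2 and 5.24 CPM in MYCN-high cells against 67.5 CPM in MYCN-low cells, nearly all of it from CD68, a lysosomal protein, at 9.66 and 5.24 CPM in MYCN-high cells against 64 CPM in MYCN-low cells, and 3 of 5 tested were called lower (median -5.12; -3.11 with members at 0 at their bound). PTPRC, the defining leukocyte marker CD45, had 1 and 0 reads in MYCN-high cells against 40 reads in MYCN-low cells, and LYZ 0 in both MYCN-high libraries against 14 in the MYCN-low one. PTPRC lost its call without MYCN-high replicate C of 14 days (-5.04, against -5.94 with both). LYZ lost its call without either MYCN-high replicate of 14 days. Whether leukocytes were in the cultures, and what part they would have in the inflammatory differences, was not tested. None of 8 tested endothelial and epithelial markers was called.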

How the data were processed

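Per the labels' protocols, RNA was extracted from cell cultures, spiked with ERCC RNA and depleted of ribosomal RNA, although the labels name polyA RNA as the molecule. The authors deposited whole read counts per gene, not normalized, in 1 table of 23367 gene rows and 92 ERCC spike-in rows. Per the submitters' processing notes, STAR 2.4.0h1, HTSeq and the build hg19 were used; the annotation, the strand setting and the treatment of multiply mapped reads are not given in the sources used here. Each column was tied to a library through the labels, and ERCC rows stayed out of library sizes and tests.

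Counts were analysed with edgeR 4.0.16 in R 4.3.3: filterByExpr, TMM factors and quasi-likelihood fits with 1 coefficient for each of 10 groups over all 19 libraries, which leaves 9 residual degrees of freedom. Because MYCN-low cells at 14 days have 1 library, its spread is taken from the other groups. P-values were adjusted by Benjamini-Hochberg over the 14793 tested genes, with a threshold of 0.05. State differences at 14 days were also tested against those of untreated and 8-day cells as contrasts, which share no library in the groups subtracted except those of 14 days. Folds against no reads use a floor of 3 counts over the group, and cover counting error only.

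Alternatives were DESeq2 1.42.0 (size factors, and its Wald test), no filter, spike-in scaling, a replicate block, fewer groups and a joint late MYCN-low group. Each library was also left out in turn, except the single MYCN-low library of 14 days. The use of the 8-day MYCN-low libraries in place of the 14-day one was added after the data were seen. Members and gene lists were chosen with earlier results of these data known. Genes named are a fixed panel, the 10 largest called changes each way among genes of at least 5 CPM, up to 4 members per list by smallest p, and the 5 largest each way for the contrasts. Other list members named as examples were chosen after their values were seen. Promoter windows are from RefSeq (GRCh38.p14). Some genes are not reported here.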

Additional observations from a re-analysis of the deposited data

Results flagged for a closer look

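The state difference at 14 days departed from that in untreated cells in 1096 genes and from that at 8 days in 40 genes, by a test of the difference itself in edgeR. All values here are changes of the log2 fold change, MYCN-high over MYCN-low, and each was picked because that test passed its threshold. Every one rests on the single MYCN-low library of 14 days on one side, and the part of that library in them was not tested.

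Against untreated cells the change was positive for HIST1H4A (6.24), SERPINF1 (5.77), HIST1H3G (5.35), SAMD11 (5.34) and HIST1H2BB (5.28), and also for TOP2A (2.81), CCNB1 (2.72) and LMNB1 (2.69). It was negative for the metalloprotease gene PAPPA (-7.37), IL8 (-6.71), the tight junction gene CLDN1 (-5.41), GDF15 (-4.07), SOD2 (-4.06), CXCL2 (-3.42), CCND1 (-3.33), TXNIP (-2.19), CDKN1A (-2.10) and MDM2 (-1.89).

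Against cells of 8 days the change was positive for CXCR7 (5.14), FAM65B (4.46), TNFRSF19 (4.01), KIT (3.69) and PDE5A (3.37). It was negative for IL8 (-8.03), CXCL1 (-7.15), CXCL2 (-5.11), TNFAIP3 (-4.72) and TGFA (-4.08). For IL1B the fitted change was -9.18, which is no bound, since neither MYCN-high library of 14 days held a read of it.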

How the results depend on the processing

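The 14-day comparison called 6190 genes, and between 4816 and 6950 when single libraries were left out, with 4816 without MYCN-high replicate C of 14 days. The other alternatives gave 6017 to 7977, except spike-in scaling, with 31 for this comparison and 0 by edgeR for both differences of differences (260 against untreated cells and 252 against 8 days at an unadjusted p under 0.05; no other tool was run with that scaling). The change from untreated cells (1096 genes) gave 1761 with DESeq2's Wald test, 1973 with no filter, and 345 to 2542 with single libraries left out. The change from 8 days (40 genes) gave 176 with the Wald test, 466 with no filter, 9 with only the groups of 8 and 14 days, and 10 to 104 with single libraries left out. Causes were not tested. With the replicate block these counts were 6017, 1144 and 94. Deviations of libraries sharing a letter were correlated between groups at -0.208 to 0.315 (median 0.108), with 22 of 36 pairs of groups over 0.1. Not every pair exceeded 0.1 and no label ties a letter to a culture or day, so the fit without the block was kept; whether letters mark a shared batch was not settled. The 14-day states share only letter B.

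The 3 genes CXCR7, FAM65B and PDE5A, not called, changed sign: CXCR7 had -0.44 under spike-in scaling, -0.37 with 1 late MYCN-low group, -0.56 with the 8-day MYCN-low libraries in place, and -0.53 to 0.50 with single libraries left out. In the same 3 settings FAM65B had -0.72, -0.70 and -0.98, and PDE5A -0.44, -0.12 and -0.31. Of 200 genes named by rule, 193 kept direction and call with the 8-day MYCN-low libraries, CXCL2, BCL2L2 and KIT lost the call and E2F1 gained it; under spike-in scaling 182 lost it. With 1 MYCN-low library at 14 days, its own departure from other such cultures cannot be seen, and folds against 3 counts or fewer carry only counting bounds.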
